A study of Mus musculus with 2 samples.

Results

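The cells described here are A20 tumour cells with high transcripts of 6 genes of the G1/S transition, the step at which a cell leaves G1 and starts to copy its DNA. They number 667 of the 3945 barcodes of the A20 class, and of 4975 barcodes in all. A20 is a lymphoma line of B cells from the BALB/c strain, and the RNA of single cells was counted from tumours it formed under the skin of Balb/c mice, which are immunocompetent hosts. One library came from the vehicle arm (20% HPbCD, a cyclodextrin carrier, given intravenously) and the other from the arm given TAK-981, an inhibitor of the SUMO-activating enzyme, intravenously at 7.5 mg/kg, and in both arms tumours were taken 8 h after the injection. Tumours of both arms were dispersed mechanically, depleted of dead cells and captured with the 10x Genomics 5′ chemistry, which counts unique molecular identifiers (UMIs, 1 per captured RNA molecule). Each arm had 1 library, and the number of mice in each library is not given in the sources used here. There was therefore no replicate check, and all intervals below are exact 95% intervals that cover counting error only.

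The A20 class held barcodes with under 10% mitochondrial UMIs, at least 200 genes, at least 1 UMI of the B cell receptor subunit Cd79a, and none of Cd3d, Cd3e, Cd3g or Lyz2. Each such cell was ranked, over both libraries together, on its UMIs per 10000 of 3 gene sets. These were the 6 G1/S genes Ung, Cdc6, Mcm3, Mcm6, Gins2 and Dut, the 55 Hist1h histone genes for S phase, and 8 genes for G2/M (Ube2c, Plk1, Cdc20, Ccnb1, Aurka, Cenpf, Hmmr and Cenpa). A G1/S cell had its highest rank on the first set, at 0.8 or above, so the members were selected on measured levels of these genes. Cells ranked highest on the histone or the G2/M set were classed likewise as S (616 cells) and G2/M (655 cells), and 2007 cells lay below 0.8 on all 3 sets. No DNA content or sort was measured, so a class is a range of ranks and not a separate cell type.

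At the G1/S boundary, cyclin E and its kinase release E2F transcription factors from the retinoblastoma proteins, and E2F switches on the genes that a cell needs to copy its genome. Those genes encode the MCM helicase that is loaded on origins, the factors that load and fire it, the enzymes that make nucleotides, and the chaperones that pack new DNA. Histone genes follow when S phase is under way, and mitotic genes, driven through other promoter elements, come later. In A20 and other B cell lymphomas many cells cycle at any time, so that these programmes can be read from single cells.

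Promoters of the ranked genes were searched for letters that E2F proteins are known to bind, because the G1/S set was not chosen on sequence. The letters were TTGGCGC, the variant TTCCCGC, the variant TTGCCGC and the variant TTCGCGC, on both strands, in windows of 300 bases around RefSeq starts (GRCm38.p6, the C57BL/6J reference, not BALB/c sequence). Of the 6 ranked genes 5 had a window in the table used, and 3 of these held a match, which were Mcm6, Cdc6 and Mcm3. In Mcm3 the matches lay after the start. The 150 bases before the start of Mcm6 (chr1:128359706-128359855, minus strand, upstream of the annotated gene) and of Cdc6 (chr11:98908001-98908150, plus strand, upstream of the start used by RefSeq and in the first intron of longer GENCODE transcripts) are shown 5′ to 3′, with the matches in capitals.

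Mcm6: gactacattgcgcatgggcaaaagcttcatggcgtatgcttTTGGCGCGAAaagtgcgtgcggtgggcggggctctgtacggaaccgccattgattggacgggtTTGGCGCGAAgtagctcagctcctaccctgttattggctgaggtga

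Cdc6: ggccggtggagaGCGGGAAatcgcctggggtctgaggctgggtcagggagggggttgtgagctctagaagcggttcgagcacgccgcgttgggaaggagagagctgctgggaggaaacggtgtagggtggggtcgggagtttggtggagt

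In Mcm6 the capitals begin 109 and 46 bases before the start, and in each place TTGGCGC on the printed strand overlaps TTCGCGC on the opposite strand. In Cdc6 the capitals begin 138 bases before the start and are TTCCCGC read on the opposite strand. Across 105 further G1/S genes, listed by role and not used in the ranking, 51 of the 87 with a window held an E2F-type match (58.6%). The same share was 10.9% of all 27025 genes in the table and 6 of 48 for a list of G2/M genes outside the rule (12.5%). For the CHR letters TTTGAA, an element of mitotic promoters, the order was the opposite. They were found in 17 of the 87 G1/S genes (19.5%), 20.2% of all genes and 32 of the 48 G2/M genes (66.7%). The box CCAAT occurred in 59.8% of the G1/S genes, 75% of the G2/M genes and 41.1% of all genes. A match is a description of letters in a window, not a measured binding site, and 15.4% of genes had more than 1 window.

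The 2396 barcodes of the TAK-981 library held 37470319 UMIs (median 11840.5 per barcode) and the 2579 of the vehicle library 57471750 (median 19608), so the vehicle library was deeper per cell. A mitochondrial share of 10% or more was found in 376 TAK-981 and 124 vehicle barcodes, and under 200 genes in 8 and 6. G1/S cells were deeper than the cells below 0.8 on all sets, with a median of 21400 UMIs against 14488 (TAK-981) and of 26946 against 19459.5 (vehicle). Their median mitochondrial share was 2.35% and 1.97%. Of 11 barcodes found in both libraries, 2 belonged to TAK-981 and 1 to vehicle G1/S cells, and none was a G1/S cell in both.

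The cells carried the defining transcripts of the B lineage. All 8 B cell markers were present, at a summed 5956 CPM (counts per 1000000 UMIs of the class) in TAK-981 and 6326 in vehicle G1/S cells, against 5668 and 5951 in the other A20-class cells. Host B cells share these markers with A20 and were not separated from it. Transcripts that define T cells, macrophages, neutrophils and natural killer cells were sparse or absent, whereas those of the dendritic and plasma cell lists were not. Cd8a, Cd4 and Trac were at 0 in both libraries, as were Cd14, Adgre1, C1qb, C1qc and Fcgr3 of macrophages and S100a8, S100a9, Retnlg and Csf3r of neutrophils. Natural killer markers were found in 2 cells of each library, and Xist, which marks cells with an inactive X chromosome, in 1 and 6 G1/S cells. Summed over each list, T cell markers stood at 12.2 CPM in TAK-981 and 18.3 in vehicle G1/S cells, against 15.6 and 17.6 in the other A20-class cells, and macrophage markers at 4.14 and 3.95 against 4.96 and 3.41. Dendritic cell markers stood at 45.4 and 38.7 CPM against 45.5 and 39.8, in 120 of 229 and 221 of 438 G1/S cells, with Clec9a and Siglech at 0, and plasma cell markers, several of which A20-class cells share, at 2085 and 2018 against 1964 and 1868. In all, 11 of 229 TAK-981 and 32 of 438 vehicle G1/S cells held any UMI of the T cell, natural killer, macrophage, neutrophil, endothelial, fibroblast, erythroid or platelet lists or of Xist, leaving out Cd2 and Ly6c2, which many A20-class cells held.

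The TAK-981 library held a smaller share of G1/S cells than the vehicle library. They were 229 of 1754 A20-class cells after TAK-981, or 13.1% (11.5 to 14.7%, Clopper-Pearson), and 438 of 2191 after vehicle, or 20.0% (18.3 to 21.7%). These intervals do not overlap, but they count cells of 1 library per arm and carry no spread between tumours. S cells took 16.4% (14.7 to 18.2%) and 15.02% (13.5 to 16.6%), and G2/M cells 16.5% (14.8 to 18.3%) and 16.7% (15.2 to 18.3%), so that both later classes had overlapping intervals. The cells below 0.8 on all sets made up 54.1% after TAK-981 and 48.3% after vehicle. With each cell thinned to 4000 UMIs and the rule applied again, the G1/S share was 143 of 1437 cells (9.95%, 8.45 to 11.6%) against 314 of 1724 (18.2%, 16.4 to 20.1%). No cell was shallower than 4000 UMIs, and the smaller totals follow from cells left without a Cd79a UMI. When cells were ranked within each library, which fixes the share at or above 0.8 at the same level in both, the values were 16.0% and 16.8%. With 1 library per arm a difference between tumours and an effect of the compound cannot be told apart, and the part of unequal depth beyond thinning was not tested.

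**Figure D1:**
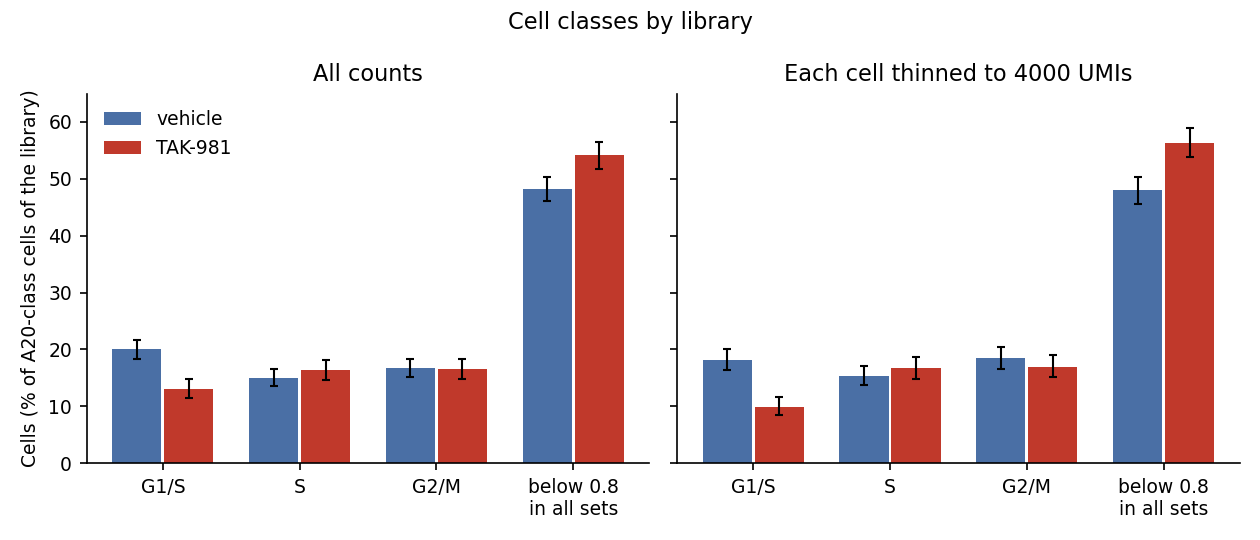
Bars give the share of A20-class cells (%) in each class for the vehicle and TAK-981 libraries, from all counts (left) and from 4000 UMIs per cell (right), with exact 95% intervals as error bars. The G1/S bars differ in both panels (20.0% against 13.1%, and 18.2% against 9.95%), while the S and G2/M intervals overlap between libraries.

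The ranked genes were at closely similar levels in the G1/S cells of both libraries, which the common ranking favours. The median sum of the 6 genes was 15.8 UMIs per 10000 in TAK-981 and 16.1 in vehicle G1/S cells, with 3.22 and 2.71 for the histone set and 2.23 and 2.43 for the G2/M set. A median G1/S cell held UMIs of 5 of the 6 genes, and 97 TAK-981 (42.4%) and 211 vehicle cells (48.2%) held all 6. The threshold lies within a continuous range. From rank 0.78 to 0.80 there were 9 TAK-981 and 36 vehicle cells with medians of 11.9 and 11.8 UMIs per 10000, and from 0.80 to 0.82 there were 17 and 42 cells with medians of 12.5 and 12.4.

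Ung, the uracil-DNA glycosylase that removes uracil from DNA, set the G1/S cells apart most among the 6. Its level was 127 CPM in TAK-981 and 139 in vehicle G1/S cells, against 17.9 and 20.5 in the other A20-class cells, and 18.1 and 22.5 in S cells. Cdc6, which loads the MCM helicase on origins, stood at 87.4 and 89.4 CPM, against 43.0 and 49.7 in S cells and 16.3 and 16.0 in G2/M cells. Gins2, a subunit of the active helicase, stood at 73.2 and 74.2 CPM, Mcm3 at 227 and 236, and Mcm6 at 345 and 395. Dut, which keeps uracil out of DNA by breaking down dUTP, was found in every G1/S cell of both libraries, at 754 and 739 CPM. These levels chose the cells and are given as a description.

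Genes with the same roles that took no part in the ranking were also higher in these cells, and nearly alike in both libraries. Over the 105 listed G1/S genes the median log2 ratio of G1/S cells to all other A20-class cells was 0.83 in the TAK-981 library (99 of 104 measured genes above 0) and 0.75 in the vehicle library (99 of 105). The medians over all genes tested were -0.02 and -0.01, with 5428 of 11339 and 5700 of 11645 genes above 0. Counts above 0 in the single lists below have the same background. In the first library 34 genes were at least 2-fold higher, and in the second 30, against 2.46% of all 11339 genes tested in the first library and 2.1% of 11645 in the second. Genes at least 2-fold lower made up 5.1% and 3.76% of those tested. Because the cells were chosen on genes that vary together with these, the contrast is a description of the class.

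Among licensing genes, Mcm4 stood at 194 CPM in TAK-981 and 197 in vehicle G1/S cells, against 71.8 and 73.7 in the other A20-class cells. That is a log2 ratio of 1.43 (1.32 to 1.54) and 1.42 (1.34 to 1.501). Mcm5 and Mcm7, further subunits of the same helicase ring, gave 1.38 and 1.25, and 1.21 and 1.10. Not all licensing genes followed. Dbf4, the activator of the kinase that fires origins, gave -0.04 and -0.16, and Orc4, of the origin recognition complex, 0.02 and -0.14. Medians over the 17 licensing genes were 0.90 and 0.73.

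All 37 listed helicase and fork genes were above 0 in both libraries, with medians of 0.84 and 0.73. Dscc1, which helps to load the sliding clamp, gave log2 ratios of 1.78 and 1.66. Clspn, which carries signals from stalled forks to the checkpoint kinase, gave 1.44 and 1.29, and Lig1, the ligase of lagging strands, 1.41 and 1.27. At the other end Recql4, a helicase, gave 0.27 and 0.04. The clamp itself, Pcna, stood at 221 and 211 CPM in G1/S cells against 88.4 and 89.4 in the other cells.

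Rrm2, the limiting subunit of ribonucleotide reductase, led the nucleotide genes. It stood at 248 CPM (234 to 262) in TAK-981 and 265 (256 to 275) in vehicle G1/S cells, against 65.3 and 73.5 in the other A20-class cells, or log2 ratios of 1.92 and 1.85. The thymidylate synthase Tyms gave 0.99 and 0.78. Samhd1, which breaks nucleotides down, differed from both with -0.05 and 0.20.

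Chromatin genes had the highest medians of the 5 G1/S lists, at 1.05 and 0.96, with 14 of 14 above 0 in both libraries. Chaf1b, a subunit of the chaperone that places histones on new DNA, gave log2 ratios of 1.92 and 1.65. Uhrf1, which recruits the maintenance DNA methyltransferase to hemimethylated sites, gave 1.61 and 1.81. Cbx5, a heterochromatin protein, was among the lowest at 0.42 and 0.55.

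The E-type cyclins were higher in G1/S cells, and so was Ccnd3 of the D-type cyclins. Ccne1 stood at 57.6 CPM (51.2 to 64.6) in TAK-981 and 57.2 (52.97 to 61.8) in vehicle G1/S cells, against 16.7 and 16.5 in the other A20-class cells, and was found in 59.0% and 58.4% of G1/S cells. Ccne2 stood at 45.2 and 32.5 CPM, with log2 ratios of 1.41 and 1.33. Ccnd3, a partner of the kinases that act on retinoblastoma proteins in G1, gave 1.06 in both libraries. Ccnd2 had 0 UMIs in the G1/S cells of both libraries, and Ccnd1 was close to 0, at 0.20 and 0.09 CPM. At counts this low no contrast with the other A20-class cells is drawn for Ccnd2 and Ccnd1. Of the transcription factors, Mybl2 gave 1.30 in both libraries and E2f1 1.02 (0.59 to 1.43) and 1.35 (1.08 to 1.62). Rbl1, a retinoblastoma family member, was lowest in the TAK-981 library at -0.38 and gave 0.07 in the vehicle library.

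The first 15 genes by the lower of both libraries' ratios, among all genes outside the 3 sets, were for the most part the genes named above. They included Rrm2, Ccne1, Dscc1, Chaf1b, Uhrf1, Mcm4, Ccne2, Mybl2, Clspn and Lig1. Of these, Mybl2 is in none of the lists. Also outside the lists came 2810417H13Rik, at 1.35 and 1.28, and Paqr4, at 2.50 and 1.64 but with only 24 and 49 UMIs. The gene models Gm17092, Gm12932 and Pcna-ps2 were outside them too. Pcna-ps2 is a pseudogene of Pcna whose reads could be shared with the parent gene, so its value is uncertain. Of these 15 genes, 8 had a promoter window and 6 of the 8 held an E2F-type match.

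DNA repair genes were above 0 in 26 of 26 cases in each library, with medians of 0.75 and 0.72. Of all genes tested, 5428 of 11339 (TAK-981) and 5700 of 11645 (vehicle) were above 0. Chek1, the kinase of the replication checkpoint, gave 1.44 and 1.17, Exo1, a mismatch repair nuclease, 1.14 and 1.17, and Xrcc3, of homologous recombination, 1.11 and 1.16. The damage kinase Atr gave 0.02 and 0.07. E2F-type letters were found in 10 of the 16 repair promoters in the table (62.5%).

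CDK inhibitors and G2/M genes were mostly lower in G1/S cells, whereas genes of MYC and ribosome biogenesis were mostly higher. CDK inhibitors and p53 targets had medians of -0.66 and -0.35, with 4 of 23 and 5 of 23 genes above 0. Over all genes tested, 5428 of 11339 and 5700 of 11645 were above 0. Cdkn1b, which encodes the CDK inhibitor p27, stood at 13.0 and 8.85 CPM in G1/S cells, with log2 ratios of -0.81 (-1.20 to -0.44) and -0.98 (-1.29 to -0.68). Gadd45a, a stress-induced growth regulator, gave -1.76 and -0.91. The 60 G2/M genes outside the rule had medians of -0.20 and -0.30, Cenpe, a mitotic kinesin, being among the lowest at -0.97 and -1.03. Genes of MYC and ribosome biogenesis were above 0 in 23 of 23 and 22 of 23 cases at medians of 0.29 and 0.23, with Myc itself at 0.71 and 0.78. The 8 lowest genes of all were Tcp11l2 (-1.72 and -1.70), Apoe (-1.45 and -1.58), the egress receptor S1pr1 (-1.51 and -1.55), the hypoxia gene Ndrg1 (-2.22 and -1.30), the stress factor Atf3 (-2.19 and -1.14), Adgrf3, Aff1 and Tmc3.

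**Figure D2:**
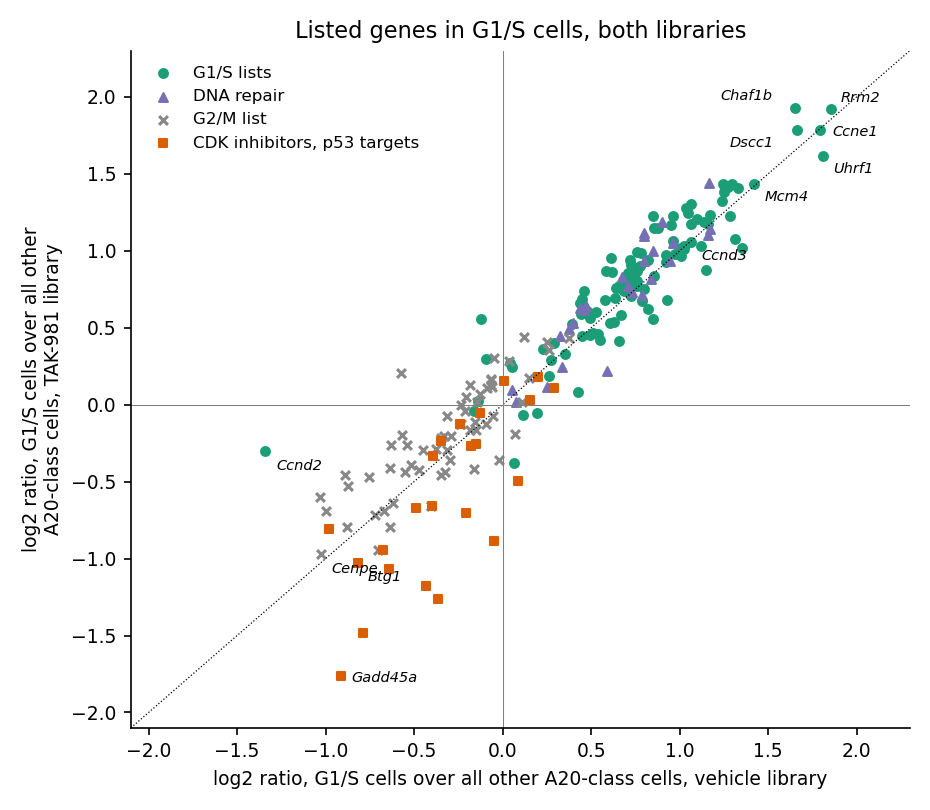
Each point is a listed gene outside the ranking sets, placed by its log2 ratio of G1/S cells to all other A20-class cells in the vehicle (horizontal) and TAK-981 library (vertical), with the dotted line marking equal values. G1/S and DNA repair genes lie mostly at the upper right (Rrm2 at 1.85 and 1.92), and CDK inhibitors and p53 targets mostly at the lower left, with Ccnd2, at 0 UMIs in G1/S cells, placed at its floor of 3 counts.

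Against S cells the G1/S cells differed less in these genes. The 105 listed genes had median log2 ratios of 0.13 and 0.10 over S cells, and 0.86 and 0.73 over G2/M cells. Mcm4 (0.80 and 0.77), Ccnd3 (0.83 and 0.84) and Chaf1b (0.92 and 0.87) were still well above S cells, while Clspn (0.12 and 0.15), Exo1 (0.00 and 0.20) and Tyms (-0.21 and -0.24) were not. DNA repair genes had medians of -0.06 and -0.10 over S cells. The G2/M list was lower than in S cells (-0.71 and -0.79) and G2/M cells (-1.20 and -1.07), and so were histone genes outside the Hist1h group over S cells (-1.60 and -1.47). Summed over the 105 genes, the level was 12045 CPM in TAK-981 and 12194 in vehicle G1/S cells, 10558 and 10615 in S cells, 6838 and 7248 in G2/M cells, and 5131 and 5687 in cells below 0.8 on all sets.

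Levels of Rrm2 and Ccne1 were higher at each step of the rank, below 0.8 as well as above it. Rrm2 stood at 22.3, 112, 222 and 295 CPM in TAK-981 cells with a G1/S rank below 0.5, from 0.5 to 0.8, from 0.8 to 0.9 and above 0.9. In vehicle cells the values were 20.7, 109, 206 and 318. Both libraries thus ran nearly parallel over the range. Ccne1 ran from 5.38 to 65.3 in the first library and from 5.11 to 62.9 in the second. Cdkn1b ran the other way, from 22.1 to 9.31 in vehicle cells and from 25.6 to 12.0 and then 16.8 in TAK-981 cells. These values include cells whose highest rank was on another set.

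**Figure D3:**
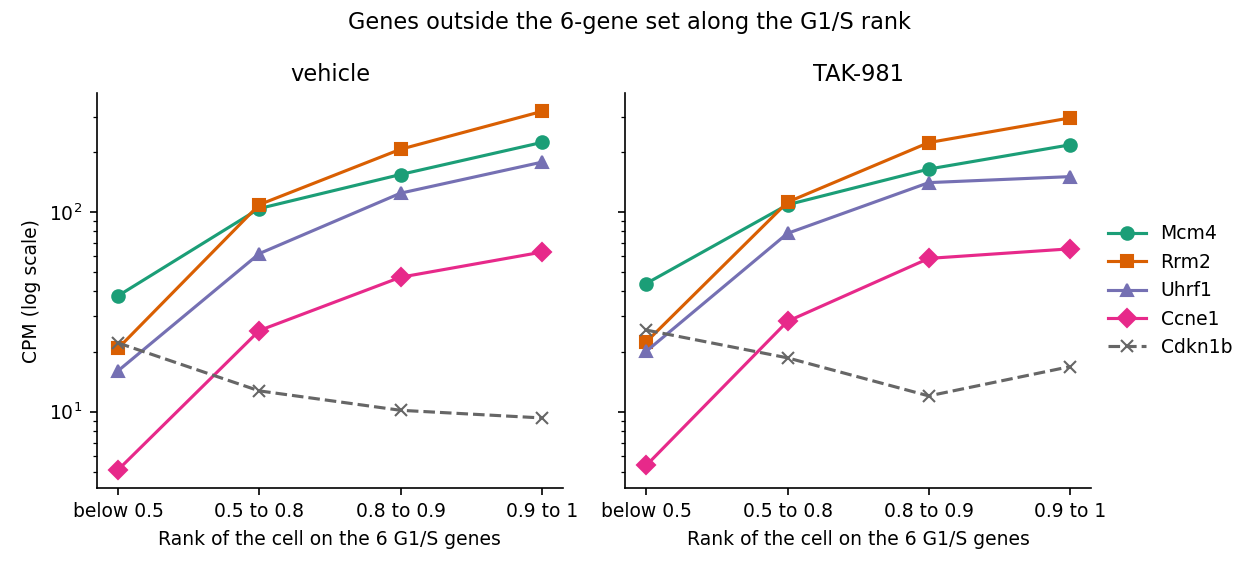
Levels in CPM (log scale) of 5 genes outside the ranking sets are plotted against the rank of the A20-class cells on the 6 G1/S genes, for the vehicle (left) and TAK-981 library (right). Mcm4, Rrm2, Uhrf1 and Ccne1 increase over each step in both libraries (Rrm2 from 20.7 to 318 in vehicle cells), and Cdkn1b (dashed) is highest below rank 0.5.

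Within the class, cells with more histone transcripts had a different pattern from those with few. This split was chosen after the values were seen, and the histone rank is a term of the rule. A histone rank below 0.5 was found in 115 TAK-981 and 235 vehicle G1/S cells, and one of 0.8 or above in 30 (13.1%) and 55 (12.6%). Ung stood at 172, 101 and 69.8 CPM from the low through the middle to the high histone rank in TAK-981 cells, and at 178, 115 and 72.0 in vehicle cells. Ung is 1 of the 6 ranked genes, so its values are a description. Of the other ranked genes Dut was highest at the high histone rank, with 747, 697 and 911 CPM in TAK-981 and 728, 732 and 792 in vehicle cells. Cdc6 had no such order, with 85.7, 94.9 and 73.4 in the first library and 83.0, 95.8 and 93.7 in the second. Genes of later S phase and G2 ran opposite to Ung. Top2a, the topoisomerase that untangles copied DNA, stood at 108, 271 and 344 CPM in TAK-981 cells and at 111, 243 and 325 in vehicle cells. Ccna2, cyclin A, stood at 57.2, 168 and 187, and at 74.8, 150 and 158. Tyms lay between, at 139, 219 and 258, and at 149, 219 and 222.

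**Figure D4:**
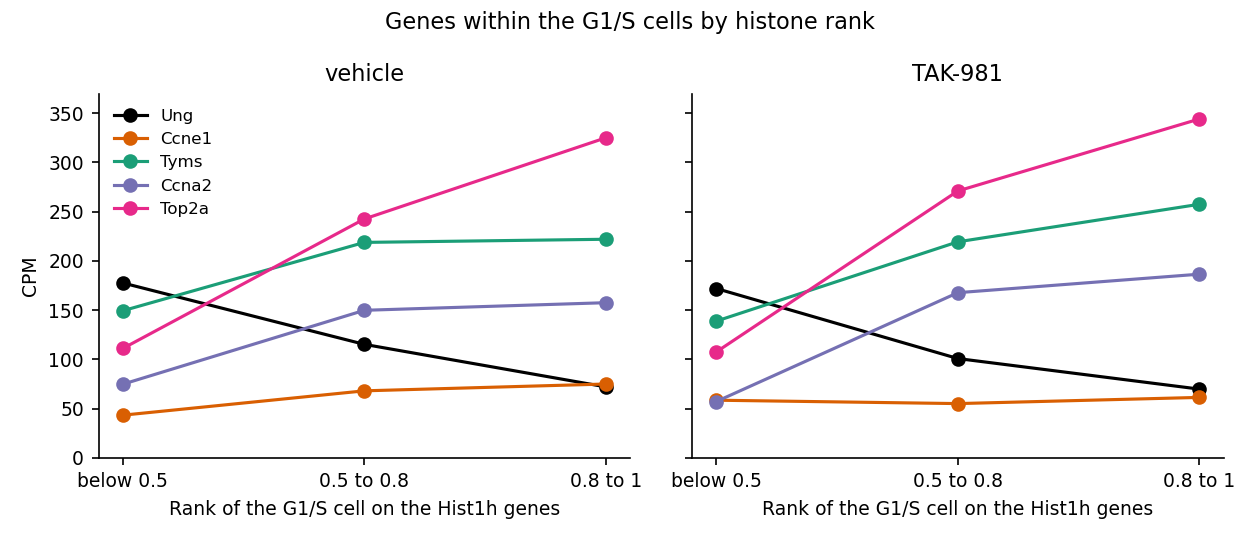
Levels in CPM of 5 genes within G1/S cells are plotted by the cell's rank on the Hist1h genes (below 0.5, 0.5 to 0.8, 0.8 to 1), for the vehicle (left) and TAK-981 library (right). Ung declines from 178 to 72.0 in vehicle and from 172 to 69.8 in TAK-981 cells, while Top2a increases from 111 to 325 and from 108 to 344.

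TAK-981 and vehicle G1/S cells were close to each other in the listed G1/S genes. The listed G1/S genes had a median log2 ratio of TAK-981 to vehicle of -0.01 over 103 measured genes, 47 of them above 0, beside 0.04 over all 10554 genes tested. None of the 103 was 2-fold apart in either direction, against 2.34% of all genes at least 2-fold higher (247) and 1.71% at least 2-fold lower (180). Those shares include genes with few UMIs. With at least 50 UMIs, which all 103 had, 55 of 8871 genes were at least 2-fold higher and 17 lower. At that filter a count of 0 in 103 is near the share over all genes. In the other A20-class cells the median was -0.08. Ratios within the class are limited by the common rank, which holds the 6 ranked genes near 1 level.

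The ends of these lists were small differences. Ccne2 (log2 0.48, 0.23 to 0.72) and Fbxo5, an inhibitor of the anaphase-promoting complex (0.43, 0.26 to 0.59), were higher in TAK-981 cells. So were Samhd1 (0.48, 0.34 to 0.63) and Orc4 (0.39, 0.15 to 0.63). Ccnd3 was lower, at 232 against 290 CPM (-0.32, -0.42 to -0.22), as were Mcm5 (-0.17, -0.27 to -0.07) and Gart, a purine synthesis enzyme (-0.20, -0.32 to -0.07). E2f1 gave -0.40 with an interval that reached 0.00. Ccne1 (57.6 against 57.2 CPM) and Mcm4 (194 against 197) were at nearly the same level in both libraries. Of the DNA repair genes, with a median of 0.06, Prkdc (0.48) and Bard1 (0.47) were highest and Nbn (-0.34) lowest.

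Interferon-stimulated genes were higher in TAK-981 than in vehicle G1/S cells. Of 65 listed genes 63 were in the table and 42 were measured in G1/S cells. The median log2 ratio was 1.28 and 41 of the 42 were above 0, against 0.04 and 5963 of 10554 over all genes tested. In TAK-981 cells 24 were at least 2-fold higher and none was 2-fold lower, against 2.34% and 1.71% of all genes. Genes with no vehicle UMI enter the median ratio at their floor. They passed the filter of 10 UMIs in both libraries together through their TAK-981 counts alone, and could only count as higher. With at least 50 UMIs in both together, the median was 0.95 and 14 of 30 listed genes were at least 2-fold higher. At that filter 55 of 8871 genes of all were at least 2-fold higher. Summed over the list, the level differed less, at 2634 CPM in TAK-981 and 2380 in vehicle G1/S cells. In both libraries most UMIs of that sum were of 1 gene, Ly6e, which was lower after TAK-981. The sum is therefore no measure of the other listed genes. At 4000 UMIs per cell the median G1/S cell held 10 and 9 UMIs of the list, Ly6e included. The list was chosen with earlier results of these data known, so its direction is not independent evidence.

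Usp18, the protease that removes ISG15 and dampens the interferon receptor, had 150 UMIs after TAK-981 and 33 after vehicle in G1/S cells, or 29.6 and 2.84 CPM, a 10.4-fold ratio (7.12 to 15.7). Isg15, the ubiquitin-like modifier itself, had 193 and 46 UMIs, a 9.63-fold ratio (6.95 to 13.6). Irf7, the factor that amplifies interferon transcription, had 245 and 112 UMIs, a 5.02-fold ratio (log2 2.33, 2.00 to 2.66). In log2 units Irf9, a subunit of the interferon-activated complex, gave 2.19 (1.78 to 2.61), Stat2, its partner in that complex, 1.31 (0.79 to 1.85), and the antiviral factor Trim30a 2.50 (1.91 to 3.11). Every one of these intervals lay above 0.

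Some of the steepest ratios rested on few cells. Mx1, an antiviral GTPase, had 29 UMIs in 5 TAK-981 cells and none in vehicle cells, which is at least 22.2-fold higher against a floor of 3 counts over the group, and 72.4% of the UMIs were in 1 cell. Ifit1 had 18 UMIs in 7 cells and none in vehicle cells, at least 13.8-fold higher, with 66.7% in 1 cell. Rtp4 had 24 UMIs against 1, a log2 ratio of 5.78 (3.17 to 11.2). Ly6e, listed as interferon-stimulated, was the 1 measured gene below 0, at -0.20 (-0.24 to -0.16), with 8036 and 21193 UMIs. The whole interferon list had 13349 and 27696 UMIs in these cells, so Ly6e made up most of them.

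Most G1/S cells of either library had no UMI of Isg15. It was found in 49 of 229 TAK-981 cells (21.4%, 16.3 to 27.3%) and 37 of 438 vehicle cells (8.45%, 6.02 to 11.5%), and at 4000 UMIs per cell in 6.99% (4.05 to 11.1%) and 1.14% (0.372 to 2.64%). Usp18 was found in 20.5% and 5.02%. Both genes together were found in 28 TAK-981 cells (12.2%) and 5 vehicle cells (1.14%). The 10 TAK-981 cells with the most Isg15 held 64.8% of its UMIs, and the highest single cell 45 UMIs, while no vehicle G1/S cell held more than 3. In vehicle G1/S cells the top 10 held 41.3%, or 19 of 46 UMIs. The difference between libraries was therefore uneven between G1/S cells. In the other A20-class cells of the same libraries both genes were found together in 8.66% and 0.913%, and the share of Isg15 UMIs in the top 10 cells was 33.7% and 25.1%, over more cells.

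The other A20-class cells also had high interferon ratios. The interferon list had median ratios of 1.58 in S cells (33 of 45 genes at least 2-fold higher), 0.86 in G2/M cells (18 of 40) and 1.40 in all other A20-class cells (34 of 49). Each median covers the listed genes measured in that class, so the genes differ between classes and the medians are not matched. Of all genes tested in those classes 2.6%, 2.49% and 3.52% were at least 2-fold higher. Irf9 was higher by 2.19 in G1/S cells against 1.58 in S and 1.42 in G2/M cells, while Isg15 was higher by 4.13 in S cells against 3.27 in G1/S cells. Differences between classes were not tested. Within the TAK-981 library the list stood lower in G1/S than in S cells, with 0 of the 46 measured genes above 0 and a median of -0.73. In the vehicle library that median was -0.40. Over all genes tested the medians were -0.15 and -0.14, with 3738 of 10339 and 3752 of 10817 genes above 0. The median TAK-981 cell did not differ, with 10 UMIs of the list, Ly6e included, in both classes at 4000 UMIs per cell. Isg15 was found in 24.04% of TAK-981 S cells (19.2 to 29.4%) and 21.4% of G1/S cells as deposited. At 4000 UMIs per cell it was found in 13.9% of S cells (10.1 to 18.5%) against 6.99% of G1/S cells (4.05 to 11.1%).

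**Figure D5:**
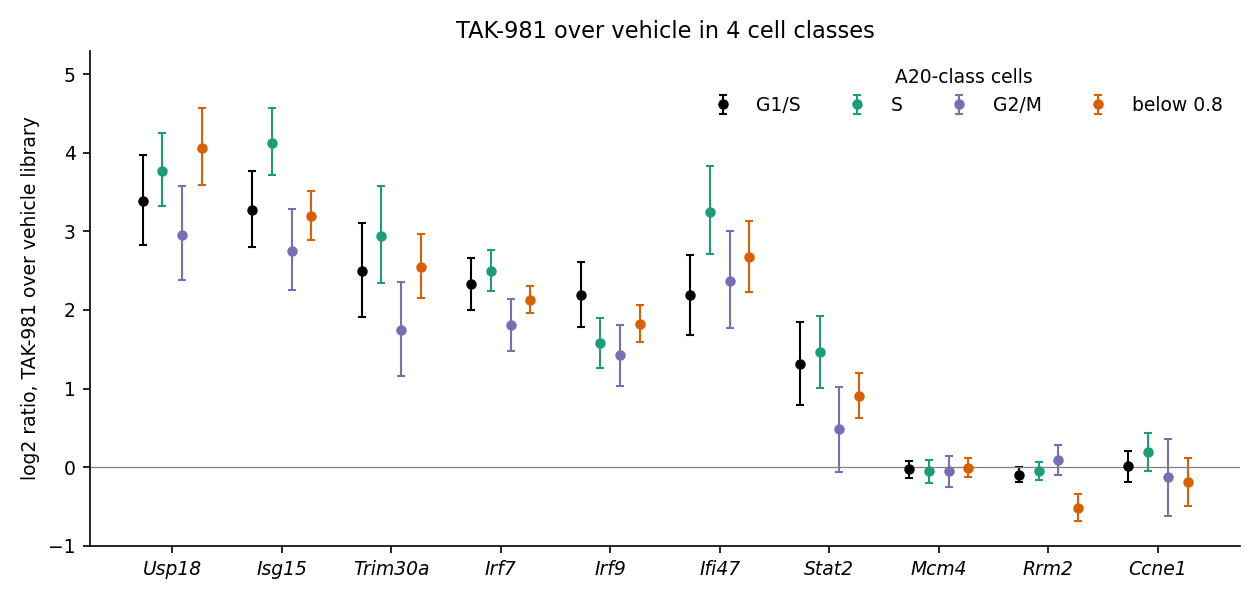
Points give the log2 ratio of TAK-981 to vehicle for 7 interferon-linked and 3 G1/S genes in G1/S, S and G2/M cells and in cells below 0.8 on all sets, with exact 95% counting intervals. Usp18 and Isg15 are near 3 or above in G1/S cells (3.38 and 3.27), whereas Mcm4 and Ccne1 lie near 0 in all classes.

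The guanylate-binding and immunity-related GTPases, which act against pathogens inside cells, had a median of 1.31. At least 2-fold higher were 8 of 12 measured genes, against 2.34% of all genes tested. Ifi47 had 99 and 50 UMIs (log2 2.18, 1.68 to 2.71) and Irgm1 33 and 16 (2.24, 1.34 to 3.20). Gbp8 was the exception, at 7 and 39 UMIs (-1.28, -2.68 to -0.10). MHC class I genes were above 0 in 18 of 20 cases at a median of 0.21, led by H2-T24 (0.98), the class I transactivator Nlrc5 (0.87) and H2-Q7 (0.76). H2-Q genes are near-identical, so their single values are uncertain. MHC class II genes were above 0 in 1 of 10 cases at a median of -0.20, with their transactivator Ciita at -0.77 (-1.27 to -0.30) and the invariant chain Cd74 at -0.12. Of all genes tested, 5963 of 10554 were above 0, at a median of 0.04.

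Genes of the SUMO pathway, whose activating enzyme is the target of TAK-981, had a median of 0.13 over 23 genes. None of the 23 was 2-fold apart, beside 2.34% of all genes higher and 1.71% lower. Sumo3 was highest of the 23, at 151 against 103 CPM (0.56, 0.43 to 0.69). Uba2, the catalytic subunit of the target, gave -0.12 (-0.23 to -0.02). The heat shock and immediate early list had a median of -0.22 in G1/S cells and -0.23 in the other A20-class cells. In G1/S cells 4 of its 25 measured genes were at least 2-fold lower, beside 1.71% of all genes, and these were Fos (48.9 against 99.4 CPM, -1.02), Dusp1 (-1.04), Nr4a1 (-1.55) and Egr2 (1 against 15 UMIs, -2.71, with an interval from -8.10 to -0.01). The list of integrated stress and endoplasmic reticulum genes had a median of 0.05, with 16 of 27 genes above 0. Both values were near those over all genes tested (0.04, with 5963 of 10554 above 0). Counting intervals lay above 0 in 11 genes of the list and below 0 in 7. In this list the chaperone Hsp90b1 stood at 649 against 397 CPM (0.71), and Pdia4 gave 0.60. In the CDK inhibitor list Cdkn1b was 0.56 higher (0.09 to 1.02) and Ddit4, an inhibitor of mTOR signalling, 0.57 lower on the log2 scale, at 37.5 against 55.8 CPM. Cdkn3, a phosphatase of CDKs in the G2/M list, had 110 against 98 UMIs (1.37, 0.96 to 1.77). It was the 1 gene of 60 in that list at least 2-fold apart, a share near that of all genes (2.34% higher and 1.71% lower).

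Over all genes with at least 50 UMIs, several of the extreme values belonged to single cells. Gzma, a granule protease of cytotoxic lymphocytes, had 77 UMIs in 1 TAK-981 cell against 1 UMI in vehicle cells. The immunoglobulin segment Iglv2 had 445 UMIs in 6 cells against 19 in 2 cells, and Wfdc21 159 against 76, with 49.7% in 1 TAK-981 cell. Slpi had 228 UMIs in vehicle cells, 71.5% of them in 1 cell, against 21. Bglap3 gave 1.88, although 1 vehicle cell held 53.6% of its vehicle UMIs, and the rest of the 10 highest were Usp18, Isg15, Trim30a, Irf7, Irf9 and Ifi47. Among the 10 lowest, Anxa10 (33 against 202 UMIs, -1.41) and Gmfg (27 against 162 UMIs, -1.39) were spread over more cells, at 83 and 110 vehicle cells. The others at the low end were Tmem231, Wnt10a, Nr4a1, St14, Gm26802, Dusp3 and Tmem260, with ratios between -1.71 and -1.17. Without the cells that held a marker UMI of another cell type the interferon median was 1.19, within a range of 0.94 to 1.40 over 12 alternatives.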

How the data were processed

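Per the file headers, each deposited matrix gives, for every gene in every barcode, a whole-number UMI count that the authors did not normalize. Cell Ranger 2.1.1 and Seurat 2 were used by the authors, per the submitters' processing notes. The genome build is not given in the sources used here. Coordinates therefore refer only to the RefSeq promoter table. The lowest total was 4670 UMIs per barcode, so barcodes had been selected before deposit. Doublets were not called, and cells with Cd3 or Lyz2 transcripts were left out by the rule.

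From the counts, UMIs were summed per library and class and divided by the class total (CPM). Log2 ratios carry exact conditional binomial intervals, levels exact Poisson intervals, and shares Clopper-Pearson intervals. A gene was measured with at least 10 UMIs in both groups together. A group at 0 was set to a floor of 3 counts over the group. "At least 2-fold" is a size, not a test: with 1 library per arm no test across samples exists. Symbols with several identifiers use the one with most UMIs.

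Genes were named by size: the 15 highest and 8 lowest in G1/S over other cells, the 10 highest and 10 lowest between libraries (at least 50 UMIs), and the ends of each list. Values of further listed genes were added after they were seen. Some listed genes are not reported here. The members and the 19 lists were chosen with earlier results of these data known. The ratio and interval code was checked on simulated counts. Alternatives covered thinning, rank, mitochondrial threshold, scaling, cell weights and count filters, and 3 were added after the data were seen. Versions were Python 3.11.15, scipy 1.17.1, numpy 2.4.6, matplotlib 3.10.9 and pandas 2.3.3.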

Additional observations from a re-analysis of the deposited data

Results flagged for a closer look

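For 3 named genes the log2 ratio of TAK-981 to vehicle had opposite signs in G1/S cells and in the other A20-class cells, with both counting intervals off 0. The difference between the classes was not tested for any of them, and 1 library per arm stands behind each value. The search covered genes named by size, and the share of all genes with such a pattern was not counted. No background therefore stands beside the count of 3. Slpi and Dusp3 were named for their low ratios in G1/S cells, so those values were selected. Both Cdca7 intervals, and that of Dusp3 in the other cells, ended near 0. Slpi, a secreted protease inhibitor, gave -2.24 (-2.96 to -1.59) in G1/S cells, with 21 against 228 UMIs, and 1.01 (0.80 to 1.22) in the other cells, with 441 against 330 UMIs. One vehicle cell held 71.5% of its G1/S UMIs. Dusp3, a dual-specificity phosphatase, gave -1.19 (-2.40 to -0.14), with 9 against 47 UMIs, and 0.40 (0.02 to 0.78), with 111 against 127 UMIs. Cdca7, which recruits the chromatin remodeller Hells, gave 0.14 (0.00 to 0.27), with 678 against 1416 UMIs, and -0.10 (-0.20 to -0.01), with 1513 against 2452 UMIs.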

How the results depend on the processing

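Of 100 alternative values, 80 stayed the same and 20 moved. The same means within the counting or list interval of the value reported or, for numbers of genes, within 1.5 times it. Shares and numbers of genes cannot change sign, and none of the medians did. The TAK-981 to vehicle median of the G1/S lists had a list interval across 0 (-0.05 to 0.02), so its sign carries no weight. The G1/S share moved to 9.95% (TAK-981) and 18.2% (vehicle) with cells thinned to 4000 UMIs and the rule applied again. It moved to 6.73% and 11.4% with a rank of at least 0.9, to 10.7% and 17.1% with ranks from thinned counts (added after the data were seen), and to 16.0% and 16.8% with ranks within each library, which equalises the libraries by construction. The TAK-981 to vehicle median of the G1/S lists moved to -0.0547 (thinned), -0.0534 (median-ratio scaling), -0.0730 (rank of at least 0.9) and -0.0667 (ranks within each library). With no count filter, 763 genes were at least 2-fold higher and 279 lower, and with at least 50 UMIs 55 and 17, over more and fewer genes tested. Thinning gave 344 lower genes. Interferon genes at least 2-fold higher were 12 of 27 after thinning and 14 of 30 with at least 50 UMIs. The vehicle median of the G1/S lists over other cells was 0.65 with ranks from thinned counts. A stricter rank gives smaller shares by construction. Apart from those shares, numbers tested and ranks within libraries, the cause was not tested. No paired analysis was possible because each arm has 1 library.

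Depth limits single genes: below about 10 UMIs in both groups no ratio is given. Ranks on 6 genes depend on depth, since the median G1/S cell held 32 (TAK-981) or 42 (vehicle) UMIs of them. Of the 229 TAK-981 and 438 vehicle G1/S cells, 113 and 241 were kept when the rule was applied to thinned counts.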
